A study of Mus musculus with 9 samples.

Results

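Mecom, Prdm16 and 6 other genes of the PR-domain family, Prdm1, Prdm2, Prdm4, Prdm10, Prdm11 and Prdm15, were followed through 9 RNA-seq libraries of mouse acute myeloid leukemia (AML) cells. The labels describe RNA sequencing, which was followed here, while the study's methods speak of microarrays. The 8 genes were taken by name from a table of 55536 genes. They were chosen by their levels in these same libraries, which were known beforehand, so the levels and differences of the 8 genes are given as a description and without a test. The leukemia was started with MLL-AF9, a fusion of the histone methyltransferase MLL with AF9 that is known from human leukemia, and the leukemia cells carried GFP. All donors and recipients were on a C57BL/6J background. GFP+ cells were given to recipients 6 to 8 weeks old without irradiation at 1000000 cells per mouse, and the leukemia cells were sorted from bone marrow on day 18. The 3 groups had 3 libraries each and are named WT c-kit-, WT c-kit+ and, for the libraries with the label IRF7-/- c-kit+, the labelled knockout. The first 2 groups were sorted from the same kind of leukemia by the stem cell factor receptor c-kit, and by the study's methods the last came from leukemia in which exons 2 and 3 of Irf7 had been replaced by a cassette. How many independently transformed leukemias stand behind each group, and whether the 3 libraries of a group came from different mice, are not given in the sources used here. Differences therefore describe these libraries, and a difference of genotype and one between leukemias cannot be told apart.

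PR-domain (PRDM) proteins carry a domain related to the catalytic SET domain of histone methyltransferases, in most of them together with zinc fingers that bind DNA. Some members methylate histones themselves and many recruit corepressors or methyltransferases to their targets. Mecom (also known as MDS1-EVI1 and EVI1) and Prdm16 are close relatives that keep blood stem cells in the stem cell state, and high EVI1 marks a group of human myeloid leukemias with poor outcome. Prdm1 (Blimp-1) drives plasma cell differentiation and also acts in macrophages.

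Irf7 and Kit were read first as a check of the labels. Irf7 was 23.5, 22.28 and 32.33 TPM in WT c-kit- and 5.31, 3.91 and 3.36 TPM in WT c-kit+. It was 12.81, 5.97 and 7.95 TPM in the labelled knockout libraries. TPM corrects a level for the length of the gene and the total of its library, so that genes can be compared with each other. The labelled knockout libraries were all above the WT c-kit+ libraries (log2 fold change 0.89, SE 0.27, limma Benjamini-Hochberg adjusted p = 0.0321, and 0.0141 to 0.0949 under other settings). The limma adjusted p was over 0.05 with no filter (0.0789) and after quantile normalization (0.0546). It was also over 0.05 without replicate 2 or 3 of WT c-kit+ or without replicate 1 or 3 of the labelled knockout. In these 4 fits the log2 fold change was 0.86, 0.77, 0.62 and 0.94. The higher Irf7 goes against the label, although a level over the whole gene also counts what is left outside the 2 replaced exons. The study states that it checked IRF7 in its models by qRT-PCR and Western blot. These libraries are called by their label, and every direction drawn from them rests on it. Kit was 0.52 to 3.03 TPM in WT c-kit-, 50.69 to 58.5 TPM in WT c-kit+ and 70.26 to 85.68 TPM in the labelled knockout libraries. Each of 8 markers of leukemic myeloid cells (Ptprc, Itgam, Kit, Cd34, Mpo, Elane, Hoxa9 and Meis1) had a mean of at least 1 TPM in every group. From WT c-kit- to WT c-kit+, 4 of them were higher without overlap, 2 were lower (Ptprc and Cd34) and 2 overlapped. The summed level of 7 neutrophil markers was 6090 to 30300 TPM in WT c-kit-, 56700 to 111000 TPM in WT c-kit+ and 1600 to 2520 TPM in the labelled knockout libraries.

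Mecom and Prdm16 are the 2 members that were called in a comparison, so the bases just upstream of their RefSeq starts are shown (250 bases each, RefSeq on GRCm38.p6, minus strand, read 5′ to 3′). Mecom has 2 RefSeq starts. The upstream one (chr3:30509760-30510009) belongs to the MDS1-EVI1 form, which holds the PR domain, and the other (chr3:30013205-30013454) to the shorter EVI1 form, which lacks it. The window of Prdm16 lies at chr4:154636874-154637123. Capitals mark a match to GAAANNGAAA on either strand, a repeat of the core that interferon regulatory factors are known to bind. No other motif was searched.
Mecom upstream start: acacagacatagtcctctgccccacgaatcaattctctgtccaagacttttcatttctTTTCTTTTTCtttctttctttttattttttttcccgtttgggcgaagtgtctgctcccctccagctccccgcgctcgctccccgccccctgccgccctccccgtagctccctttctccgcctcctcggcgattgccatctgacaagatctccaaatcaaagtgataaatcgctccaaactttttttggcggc
Mecom EVI1 start: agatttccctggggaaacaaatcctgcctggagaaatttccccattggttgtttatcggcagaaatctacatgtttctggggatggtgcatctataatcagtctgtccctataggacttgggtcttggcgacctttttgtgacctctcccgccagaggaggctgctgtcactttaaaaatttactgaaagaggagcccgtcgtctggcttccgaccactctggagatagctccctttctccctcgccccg
Prdm16: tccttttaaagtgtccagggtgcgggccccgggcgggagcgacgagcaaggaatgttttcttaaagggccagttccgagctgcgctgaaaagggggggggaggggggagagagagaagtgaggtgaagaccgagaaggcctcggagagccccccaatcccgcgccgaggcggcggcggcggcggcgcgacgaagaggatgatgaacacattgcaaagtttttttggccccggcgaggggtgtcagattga
The upstream Mecom window held 1 match, on the opposite strand and within a stretch of T and C. Neither the EVI1 window nor that of Prdm16 held one. Of 11 windows for the 7 members that have one, this was the only match, and 2.98% of 32851 windows of the same length held one. The Prdm16 window had 62.4% G and C with 22 CpG dinucleotides, and the Mecom windows had 50.8% with 14 and 50.4% with 8, against medians of 52.4% and 6 over all windows. A match is a description of the letters and no measure of binding.

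Mecom was on in wild-type leukemia and listed at 0 in the labelled knockout. Its level was 14.49, 16.13 and 27.61 TPM in WT c-kit- and 34.47, 32.92 and 33.63 TPM in WT c-kit+, with 0, 0 and 0 TPM in the labelled knockout libraries. The 3 groups did not overlap. The WT c-kit+ libraries lay close together, while replicate 3 of WT c-kit- stood nearer to them than to the rest of its group. The means of WT c-kit- and WT c-kit+ were 19.4 ± 7.15 and 33.7 ± 0.776 TPM (SD, n = 3 each), a ratio of 1.73 and a difference of 0.82 (SE 0.27) in log2(TPM + 1), below the 1 that a call needed. From WT c-kit+ to the labelled knockout libraries the mean was lower by 33.7 TPM (SE 0.448), and from WT c-kit- by 19.4 TPM (SE 4.13). No fold is given against a group listed at 0, since the files hold no read counts. In WT c-kit+ the mean of Mecom was above that of 68.1% of the 12958 genes with a mean of at least 1 TPM, and in WT c-kit- above 50.3% of 13149.

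Markers of other cell types were read beside Mecom. In WT c-kit- the library with the highest Mecom, replicate 3 at 27.61 TPM, also had the highest Kit of its group (3.03 TPM) and the highest neutrophil marker sum (30300 TPM, against 6090 and 7660 TPM). In WT c-kit+ Kit did not follow Mecom, since replicate 2 had the lowest Mecom and the highest Kit (32.92 and 58.5 TPM). The neutrophil marker sum did have the order of Mecom there, with 111000, 56700 and 84300 TPM in replicates 1 to 3. Mecom was 34.47, 32.92 and 33.63 TPM in these. Of the 7 neutrophil markers, 4 were higher in all WT c-kit+ than in all WT c-kit- libraries, 2 overlapped, and 1, Mmp8, was lower (means of 4.68 and 74.6 TPM), so the sum, which is mostly S100a8 and S100a9, does not stand for each of them. Megakaryocytes, another cell type in which Mecom is known to act, left little trace, with 6 markers that summed to 0.8 to 2.63 TPM in WT c-kit-, 9.69 to 11.8 TPM in WT c-kit+ and 9.26 to 13.1 TPM in the labelled knockout libraries, where Mecom was listed at 0. Most of the megakaryocyte sum in both c-kit+ groups was Gp9. Endothelial and stromal cells were at most 2.02 TPM over 5 markers. The part of these cell types in the level of Mecom was not tested, and in sorted bulk samples fewer cells of a type and less RNA per cell cannot be told apart.

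Mecom spans 597 kb of the minus strand (chromosome 3, 29951296 to 30548008 in GENCODE M21 on GRCm38). The annotation gives it 17 transcripts, of which 11 are coding, with coding starts spread over 512 kb. A value per gene does not separate the MDS1-EVI1 form from the EVI1 form. Of the 7 genes annotated within it, none was above 0.39 TPM in any library. Among these was Mecomos, an antisense RNA, at most 0.23 TPM.

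Prdm16, which like Mecom is needed by blood stem cells and is better known for switching precursors to brown fat, had similar levels in c-kit- and c-kit+ wild-type cells. The values were 9.36, 8.76 and 8.45 TPM in WT c-kit- and 9.72, 8.2 and 8.91 TPM in WT c-kit+. In the labelled knockout libraries they were 0, 0.16 and 0 TPM. The wild-type groups overlapped and all 6 wild-type libraries lay above the 3 others. The difference in log2(TPM + 1) was 0.01 (SE 0.075) between the wild-type groups and 0.16 after quantile normalization. It was -3.24 (SE 0.096) from WT c-kit+ to the labelled knockout libraries and -3.23 (SE 0.081) from WT c-kit-. With a pseudocount of 0.1 in place of 1 these became -6.04 and -6.02, so the size rests on the pseudocount. The mean was lower by 8.89 TPM (SE 0.442) and 8.8 TPM (SE 0.272) in these comparisons. Prdm16 lies on the minus strand of chromosome 4 (154316125 to 154636873), and its 3 overlapping genes were at most 0.5 TPM.

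**Figure D1:**
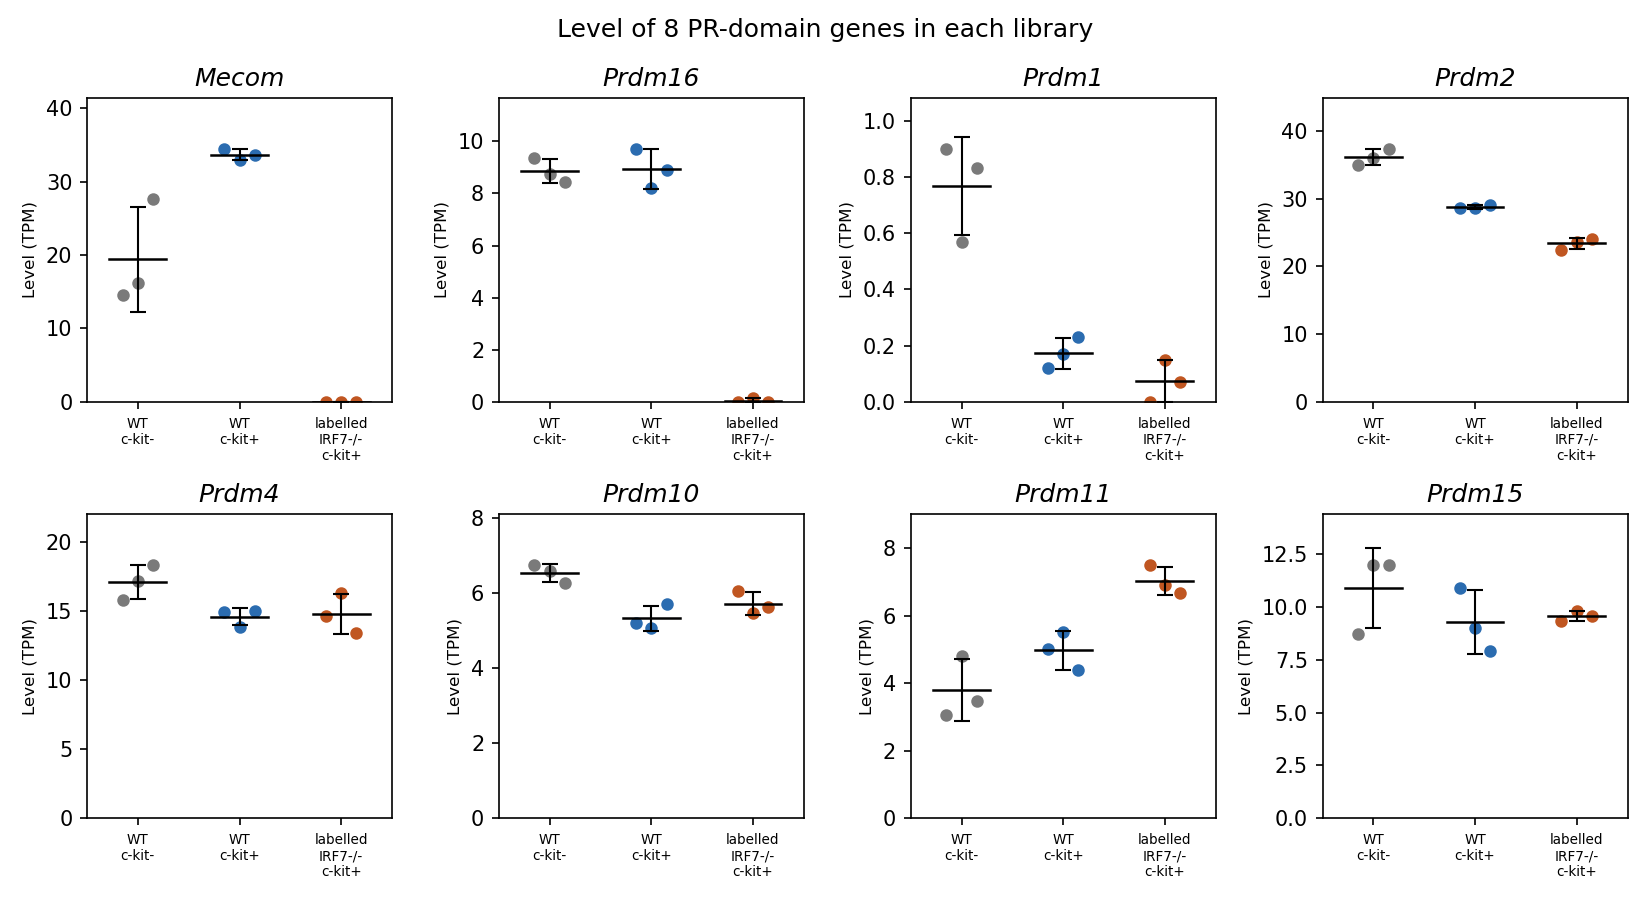
Level in TPM (vertical axes, linear from 0, scaled per gene) of the 8 PR-domain genes in each of the 9 libraries, with the 3 groups along the horizontal axes. Points are libraries, long bars are means and error bars are SD (n = 3). Mecom and Prdm16 sat at or near 0 in the labelled knockout libraries and above 8 TPM in all 6 wild-type libraries, Prdm2 stepped down over the 3 groups, and Prdm11 was highest in the labelled knockout libraries.

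A level of 0 was rare among genes that were on in wild-type leukemia. Of 8983 genes with at least 5 TPM in each of the 6 wild-type libraries, 2 were listed at 0 in all 3 labelled knockout libraries, Mecom and AC132444.4, and 4 had a mean below 0.1 TPM there, Prdm16 and Strc being the others. AC132444.4 and Strc were named after their values were seen, and Mecom and Prdm16 were chosen with theirs known. The counts are therefore a description. None of 10 housekeeping genes was listed at 0 in any library, but these were not matched to Mecom or Prdm16 in level. Strc, which encodes the inner ear protein stereocilin, was 20.89 to 27.37 TPM in WT c-kit-, 18.33 to 26.57 TPM in WT c-kit+ and 0.05 to 0.16 TPM in the labelled knockout libraries.

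Prdm1 was low everywhere. It was 0.9, 0.57 and 0.83 TPM in WT c-kit- and 0.12, 0.17 and 0.23 TPM in WT c-kit+, with 0, 0.15 and 0.07 TPM in the labelled knockout libraries. The c-kit- libraries lay above all c-kit+ libraries, and the 2 c-kit+ groups overlapped. It never reached 1 TPM and did not enter the fits. The difference in log2(TPM + 1) was -0.59 (SE 0.093) from WT c-kit- to WT c-kit+, -0.13 (SE 0.07) between the c-kit+ groups and -0.72 (SE 0.1) from WT c-kit- to the labelled knockout libraries. The summed level of 5 monocyte and macrophage markers, mostly Csf1r and Cd14 in wild-type leukemia, was 642 to 708, 128 to 175 and 92 to 116 TPM. Single markers differed from the sum. Adgre1 had means of 81.9, 31.6 and 61.4 TPM in the 3 groups and C1qa had 0.567, 2.87 and 1.43 TPM. Plasma cell markers (3 genes) summed to 24.3 to 68.8, 10.3 to 43.7 and 2.65 to 3.47 TPM. Most of this was Jchain, with means of 45.9, 20.8 and 2.46 TPM, and 2 of the 3 markers overlapped between the wild-type groups. Markers of B cells were at most 1.31 TPM over 4 genes and those of T and NK cells at most 0.69 TPM over 3. The part of monocytes or plasma cells in the level of Prdm1 was not tested.

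Prdm2 (RIZ), a histone H3 lysine methyltransferase studied as a tumor suppressor, was the most abundant member in WT c-kit- and in the labelled knockout libraries. Its level was 34.98, 36.05 and 37.39 TPM in WT c-kit- and 28.56, 28.66 and 29.1 TPM in WT c-kit+, with 22.5, 23.61 and 24.07 TPM in the labelled knockout libraries. No group overlapped another and the libraries of a group lay close together. The differences in log2(TPM + 1) were -0.32 (SE 0.028), -0.29 (SE 0.029) and -0.61 (SE 0.039) for WT c-kit+ against WT c-kit-, the labelled knockout against WT c-kit+, and the labelled knockout against WT c-kit-. After quantile normalization they were -0.16, -0.36 and -0.53. Over all genes tested the median difference was -0.08, 0.12 and 0.03 in these comparisons, so relative to the median gene Prdm2 was lower by 0.24, 0.41 and 0.64.

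Prdm11, which has been linked to Myc-driven lymphoma, was the member that was highest in the labelled knockout. It was 3.06, 4.82 and 3.48 TPM in WT c-kit- and 5.03, 5.51 and 4.38 TPM in WT c-kit+, with 7.51, 6.91 and 6.68 TPM in the labelled knockout libraries. The wild-type groups overlapped, and the labelled knockout libraries lay above all 6 wild-type libraries. The difference in log2(TPM + 1) was 0.33 (SE 0.17) between the wild-type groups, 0.43 (SE 0.091) from WT c-kit+ to the labelled knockout libraries and 0.76 (SE 0.16) from WT c-kit-, where the ratio of means was 1.86.

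Prdm4, Prdm10 and Prdm15 differed little between the groups. Prdm4, which recruits the arginine methyltransferase Prmt5, was 15.79, 17.13 and 18.31 TPM in WT c-kit- and 14.89, 13.85 and 14.99 TPM in WT c-kit+, with 14.64, 16.27 and 13.42 TPM in the labelled knockout libraries. Its wild-type groups did not overlap, and the labelled knockout libraries overlapped both. Prdm10, a sequence-specific transcriptional activator, was 6.76, 6.6 and 6.29 TPM in WT c-kit- and 5.2, 5.07 and 5.72 TPM in WT c-kit+, with 6.07, 5.47 and 5.65 TPM in the labelled knockout libraries. The c-kit- libraries were above both c-kit+ groups, which overlapped. Prdm15, a factor of pluripotent stem cells, was 8.71, 11.99 and 11.99 TPM in WT c-kit- and 10.92, 8.99 and 7.93 TPM in WT c-kit+, with 9.33, 9.83 and 9.57 TPM in the labelled knockout libraries, and its groups overlapped in all 3 comparisons. From WT c-kit- to WT c-kit+ the differences in log2(TPM + 1) were -0.21 (SE 0.068) for Prdm4, -0.26 (SE 0.052) for Prdm10 and -0.21 (SE 0.19) for Prdm15, which ranged from -0.35 without replicate 1 of WT c-kit- to -0.11 without replicate 3 of WT c-kit+. Between the c-kit+ groups they were 0.02 (SE 0.083), 0.09 (SE 0.059) and 0.05 (SE 0.12). After quantile normalization the last 3 became -0.06, 0.0 and -0.03, so these carry no stable direction. A pseudogene on the other strand of Prdm15, Gm49592, reached 3.87 TPM, and the sources used here do not say whether the quantification was stranded.

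The order of the members changed between the groups. In WT c-kit+ Mecom came first (lowest library 32.92 TPM), above Prdm2 and then Prdm4, while Prdm15 and Prdm16 overlapped, as did Prdm10 and Prdm11. In WT c-kit- Prdm2 came first, Mecom and Prdm4 overlapped, Prdm15 and Prdm16 overlapped, and Prdm10 lay above Prdm11. In the labelled knockout libraries the order was Prdm2, Prdm4, Prdm15, Prdm11 and Prdm10 with no overlap between neighbours, and Prdm1, Prdm16 and Mecom followed at 0.16 TPM or less. Prdm1 was the lowest member in both wild-type groups.

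Calls were made with limma on log2(TPM + 1) over all genes that reached 1 TPM in 3 or more of the 6 libraries compared, and a gene was called at a difference of at least 1 in log2(TPM + 1) and a Benjamini-Hochberg adjusted p under 0.05. Of the 8 members, 7 passed the filter in each comparison. For WT c-kit+ against WT c-kit-, 0 members were called higher and 0 lower, where 4.83% and 9.61% of 13261 genes were. For the labelled knockout against WT c-kit+, 0 were called higher and 2 lower, Mecom and Prdm16, where 6.3% and 5.39% of 13238 genes were. Against WT c-kit-, 0 were called higher and the same 2 lower, where 8.4% and 11.9% of 13510 genes were. Groups did not overlap for 4, 4 and 5 of the 7 members in these comparisons, against 54.4%, 59.1% and 67.1% of all genes tested. The members were chosen with these values known and nothing is read from their counts. The gene lists below were also chosen with earlier results of these data known. Their calls, medians and p-values are thus no test of lists set in advance. The last 2 comparisons share the labelled knockout libraries, and each wild-type group enters 2 comparisons.

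Of 6 other PR-domain genes, all but Prdm9 were nearly silent. Prdm6, Prdm8, Prdm12, Prdm13 and Prdm14 were at most 0.04 TPM in any library, and Prdm6 and Prdm12 were listed at 0 in all 9. Prdm9, which marks sites of meiotic recombination in germ cells by methylating histone H3, was 11.67, 11.18 and 13.91 TPM in WT c-kit- and 14.11, 12.2 and 14.74 TPM in WT c-kit+, with 10.7, 10.11 and 7.53 TPM in the labelled knockout libraries. The labelled knockout libraries lay below all wild-type libraries. The log2 fold change of Prdm9 was -0.50 (SE 0.14, limma Benjamini-Hochberg adjusted p = 0.0277) against WT c-kit+ and -0.35 (SE 0.15, limma Benjamini-Hochberg adjusted p = 0.0877) against WT c-kit-, and it was called in neither. Of these 6 genes, 1 was tested.

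Summed over the 14 PR-domain genes, the level was 106 to 128 TPM in WT c-kit-, 116 to 123 TPM in WT c-kit+ and 67.0 to 72.5 TPM in the labelled knockout libraries. Mecom and Prdm16 made up 22.0% to 28.1%, 35.6% to 35.9% and 0% to 0.221% of these sums. The other 12 genes summed to 87.5 ± 5.25, 76.8 ± 2.21 and 70.1 ± 2.77 TPM (SD, n = 3 each), with no overlap between the groups. Most of the gap in the sums between the labelled knockout libraries and WT c-kit+ was thus the level of Mecom and Prdm16, and among the remaining genes Prdm2 and Prdm9 were lower there and Prdm11 higher.

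**Figure D2:**
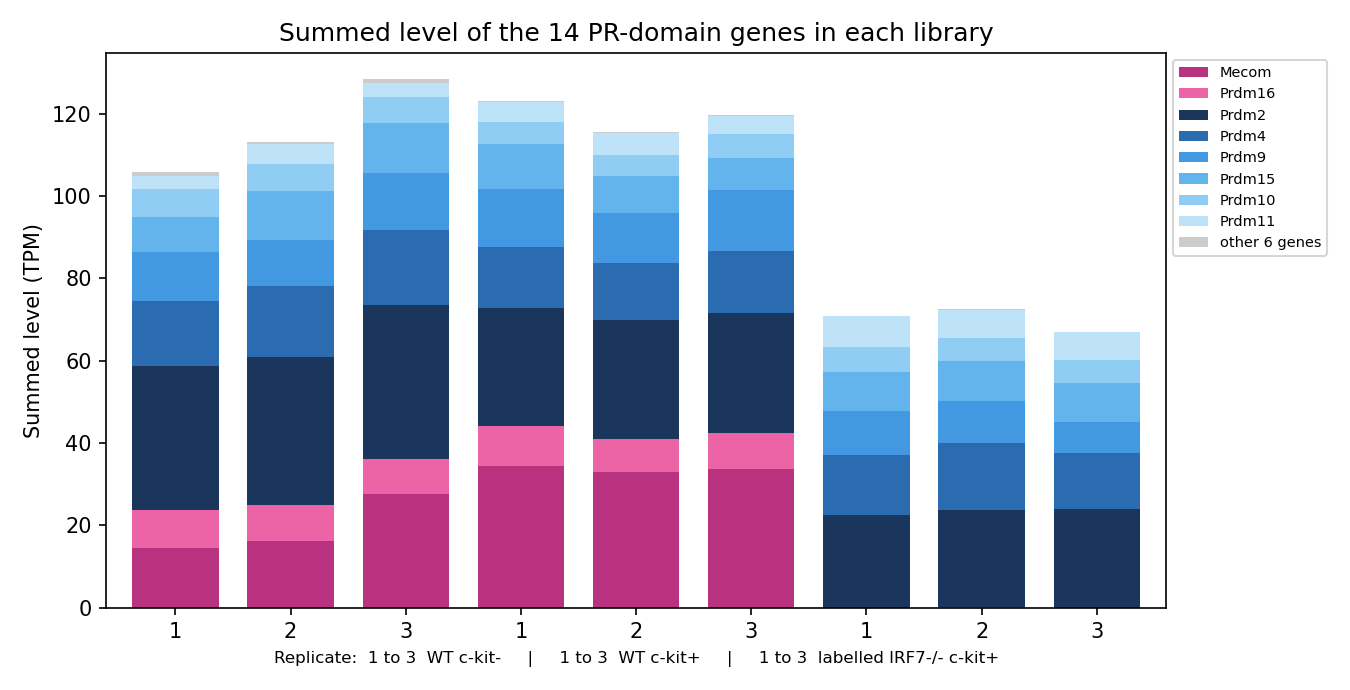
Summed level in TPM (vertical axis) of the 14 PR-domain genes in each library (horizontal axis, replicates 1 to 3 of each group), stacked by gene. The bars of WT c-kit- and WT c-kit+ reached 106 to 128 TPM, and those of the labelled knockout libraries reached 67.0 to 72.5 TPM with no visible part for Mecom and Prdm16.

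The genes whose pattern was most like that of Mecom, Prdm16 and Prdm1 were named by Pearson's r of log2(TPM + 1) over the 9 libraries, among 11064 genes with a mean of at least 5 TPM in at least 1 group. The 9 libraries fall into 3 groups, so a high r mostly reflects the group means and is given as a description. Nearest to Mecom were AC125149.3 (r = 0.994), AC133103.2 (0.992), Chil1 (0.992), Map3k9 (0.99) and 1700030N03Rik (0.989). Chil1, a chitinase-like secreted protein of neutrophils, was 73.47 to 236.27 TPM in WT c-kit-, 387.17 to 609.69 TPM in WT c-kit+ and 0.55 to 1.34 TPM in the labelled knockout libraries. Nearest to Prdm16 were AC132444.5 (0.996), Cables2 (0.995), Strc (0.995), Alcam (0.994) and Cdk5rap1 (0.994). Alcam, an adhesion molecule of the immunoglobulin family, had means of 15.1, 14.7 and 0.86 TPM in the 3 groups, and Cables2 had 26.8, 26.8 and 12.4 TPM. Nearest to Prdm1 were Mtmr4 (0.992), Tradd (0.991), Vamp4 (0.988), Zfp182 (0.985) and Plekhm1 (0.985), all at 13.1 TPM or more on average in WT c-kit- and lower in both c-kit+ groups. Cables2, Strc and Cdk5rap1 all lie on chromosome 2, at starts of 180258540, 121363728 and 154335380, and AC125149.3, AC133103.2, AC132444.5 and AC132444.4 lie on scaffolds that the assembly does not place on a chromosome. Whether reads of the scaffold genes are shared with near-identical copies elsewhere was not tested.

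The genes around Mecom and Prdm16 were looked at after the levels of both were known, and their values are given without a test. Of 14 annotated coding genes within 1 Mb of Mecom, 6 reached 1 TPM in at least 3 libraries, and their means in the labelled knockout libraries were 0.401 to 1.14 times those in WT c-kit+, with a median of 0.974. The nearest, Mynn, whose start lies 54.1 kb upstream, had means of 11.8, 13.2 and 13.7 TPM in the 3 groups, and Sec62 had 39.9, 43.2 and 49.1 TPM. Skil (SnoN), a repressor of TGF-beta signalling, was the lowest in ratio, with 9.68, 8.69 and 11.79 TPM in WT c-kit- and 8.63, 8.96 and 10.69 TPM in WT c-kit+, against 3.29, 3.67 and 4.38 TPM in the labelled knockout libraries. Of 35 coding genes within 1 Mb of Prdm16, 19 reached 1 TPM, with ratios of 0.247 to 1.37 and a median of 1.05. Fam213b was the lowest among them with means of 15.5, 6.8 and 1.68 TPM. The c-kit+ groups overlapped for 4 of the 6 expressed neighbours of Mecom, with 1 higher and 1 lower in the labelled knockout libraries. They overlapped for 11 of the 19 beside Prdm16, with 6 higher and 2 lower. Neighbours that did not reach 1 TPM in at least 3 libraries enter none of these counts.

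Mecom and Prdm16 are flanked by pairs of related genes. Skil lies beside Mecom and Ski beside Prdm16, Prkci beside Mecom and Prkcz beside Prdm16, and Actrt3 beside Mecom and Actrt2 beside Prdm16. Ski had means of 26.0, 19.9 and 15.9 TPM in WT c-kit-, WT c-kit+ and the labelled knockout libraries, whose c-kit+ groups overlapped. Prkci, an atypical protein kinase C, had 16.3, 20.6 and 20.1 TPM and Prkcz 1.19, 1.41 and 1.42 TPM. The 2 actin-related genes were listed at 0 in every library.

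**Figure D3:**
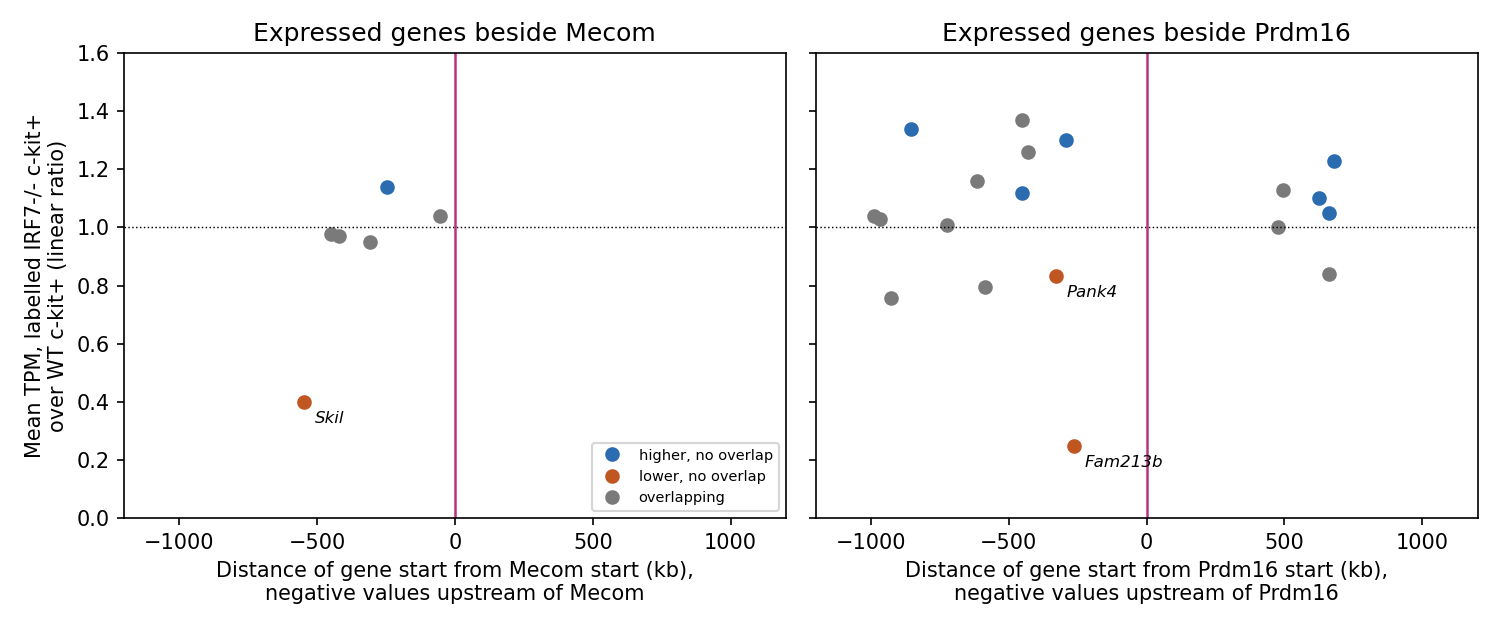
Ratio of mean TPM in the labelled knockout libraries to that in WT c-kit+ (vertical axes, linear) for the expressed coding genes beside Mecom (6 genes) and Prdm16 (19 genes), against the distance of their starts from the start of either gene in kb (horizontal axes, negative upstream). Colors show whether the 3 and 3 libraries overlapped, the vertical line is the start of Mecom or Prdm16, which are not drawn themselves, and Skil at 0.401 and Fam213b at 0.247 stood below the other genes.

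The proteins that PR-domain factors are known to work with were expressed in every group, with 1 exception. The list held 20 genes, among them the corepressors Ctbp1, Ctbp2 and Tle3, histone deacetylases, histone methyltransferases, acetyltransferases, Kdm1a, Smad3 and Med1. It also held the blood transcription factors Cebpb, Runx1, Spi1 and Gata1 that bind or are bound by EVI1 or its relatives. Of the 20, 19 were tested, with Gata1 at most 0.45 TPM as the exception. For WT c-kit+ against WT c-kit-, 0 rose and 1 fell. Between the c-kit+ groups 0 were called higher and 0 lower, although 10 had a limma Benjamini-Hochberg adjusted p under 0.05 at a smaller difference, 6 of them higher and 4 lower in the labelled knockout libraries. Those with the largest differences, named after their values were seen, were Tle3 at -0.67 (adjusted p = 0.000871), Smad3 at -0.66 (0.00267), Runx1 at -0.65 (0.0165) and Prmt5 at 0.61 (0.00385) in log2(TPM + 1). The share of all genes at an adjusted p under 0.05 and any size is not given, so nothing is read from the count of 10. Against WT c-kit-, 0 rose and 2 fell in the labelled knockout libraries. The medians of the list were -0.15, 0.12 and -0.01 in these comparisons, beside -0.08, 0.12 and 0.03 over all genes tested. Of those, 4.83%, 6.3% and 8.4% were called higher and 9.61%, 5.39% and 11.9% lower. Ctbp1, the corepressor through which EVI1 is known to repress, had means of 145, 155 and 175 TPM, and Prmt5 had 29.2, 32.5 and 50.0 TPM.

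Cebpb, a factor of myeloid differentiation, was 29.77 to 39.33 TPM in WT c-kit-, 12.33 to 14.48 TPM in WT c-kit+ and 13.73 to 15.06 TPM in the labelled knockout libraries. It fell in both c-kit+ groups against WT c-kit-, by 1.36 (SE 0.13, limma Benjamini-Hochberg adjusted p = 0.000256) and 1.24 (SE 0.12, limma Benjamini-Hochberg adjusted p = 0.000184) on the log2 scale. Runx1, a regulator of blood stem cells that EVI1 binds, was 78.55 to 93.19, 55.02 to 67.95 and 30.23 to 45.43 TPM in the 3 groups. It was called lower in the labelled knockout libraries against WT c-kit- (log2 fold change -1.12, SE 0.16, limma Benjamini-Hochberg adjusted p = 0.00103), but without replicate 2 of the labelled knockout the value was -0.94 and the call was lost.

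Other regulators of blood stem cells were called in both directions between WT c-kit+ and the libraries in which Mecom was listed at 0. Within the list more differences were upward, which is a description. Of 18 listed genes, 12, 12 and 11 were tested in the 3 comparisons. From WT c-kit- to WT c-kit+, 2 rose and 0 fell. From WT c-kit+ to the labelled knockout, 2 rose and 1 fell, and from WT c-kit- to the labelled knockout, 4 rose and 0 fell. At a limma Benjamini-Hochberg adjusted p under 0.05 and any size, 6 were higher and 1 lower between the c-kit+ groups. Against WT c-kit- these were 10 and 0 in the labelled knockout. Among the 6, named after their values were seen, were Meis1 (0.58), Hoxa10 (0.53), Lmo2 (0.49) and Hoxa9 (0.37), below the 1 that a call needed. The share of all genes at an adjusted p under 0.05 and any size is not given. Nothing is therefore read from the counts at that threshold. The list medians were 0.36, 0.38 and 0.86, beside -0.08, 0.12 and 0.03 over all genes. Of all genes tested, 4.83%, 6.3% and 8.4% were called higher and 9.61%, 5.39% and 11.9% lower in the 3 comparisons. Tek, Tal1, Fgd5 and Esam, genes of stem cells and of megakaryocytes or endothelium, were at most 0.24 TPM in any library.

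Cdkn1c (p57), an inhibitor of the cell cycle that keeps stem cells quiescent, was 0.93, 1.63 and 4.07 TPM in WT c-kit- and 57.22, 44.9 and 50.9 TPM in WT c-kit+, with 12.64, 6.51 and 14.33 TPM in the labelled knockout libraries. It was highest in WT c-kit+ like Mecom, with log2 fold changes of 4.13 (SE 0.34, limma Benjamini-Hochberg adjusted p = 0.000157) against WT c-kit- and -2.15 (SE 0.26, limma Benjamini-Hochberg adjusted p = 0.00108) from there to the labelled knockout. In the latter it was still above WT c-kit- (log2 fold change 1.98, SE 0.41, limma Benjamini-Hochberg adjusted p = 0.00594).

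Zbtb16 (PLZF), a zinc finger repressor of immature blood cells, and Angpt1, a ligand of the Tek receptor, went the other way. Zbtb16 was 1.4 to 2.9, 0.98 to 2.64 and 8.43 to 9.0 TPM in WT c-kit-, WT c-kit+ and the labelled knockout libraries, and rose in the last against WT c-kit+ (log2 fold change 1.82, SE 0.22, limma Benjamini-Hochberg adjusted p = 0.00108). Angpt1 was 1.15 to 1.75, 1.28 to 3.52 and 9.03 to 10.32 TPM and rose likewise (log2 fold change 1.76, SE 0.24, limma Benjamini-Hochberg adjusted p = 0.00169). Against WT c-kit- the log2 fold changes were 1.61 (SE 0.19, limma Benjamini-Hochberg adjusted p = 0.000496) for Zbtb16 and 2.13 (SE 0.14, limma Benjamini-Hochberg adjusted p = 3.98e-05) for Angpt1. Hlf, a transcription factor of blood stem cells, was at most 0.02 TPM in WT c-kit-, 1.01 to 1.21 TPM in WT c-kit+ and 0.58 to 0.78 TPM in the labelled knockout libraries. It passed the filter only through WT c-kit+, so only a rise from WT c-kit- could be called. It was called higher in WT c-kit+ (log2 fold change 1.04, SE 0.15, limma Benjamini-Hochberg adjusted p = 0.00163), which without replicate 2 of that group became 0.99, and with it the call was lost. Mllt3, whose human counterpart encodes AF9, was 20.73 to 41.94, 54.85 to 62.49 and 57.8 to 68.35 TPM. It was called higher in the labelled knockout against WT c-kit- (log2 fold change 1.04, SE 0.23, limma Benjamini-Hochberg adjusted p = 0.00813), and the call was lost without replicate 1 of WT c-kit- (0.77) or replicate 3 of the labelled knockout (0.98). Reads of Mllt3 and of the AF9 part of the fusion cannot be told apart in a value per gene.

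In the Prdm1 network Bcl6 was called lower in all 3 comparisons, and Myc was called higher in 1, at a fold change near the threshold. The other genes called lower had passed the filter only through groups in which they were higher. The list of 10 held targets that Blimp-1 is known to repress, such as Myc, Pax5, Ciita, Bcl6 and Spib, and factors that act with or against it, such as Irf4, Bach2 and Xbp1. From WT c-kit- to WT c-kit+, 7 were tested, 0 rose and 3 fell. Between the c-kit+ groups, 4 were tested, 0 rose and 2 fell. From WT c-kit- to the labelled knockout, 7 were tested, 1 rose and 5 fell. The list medians were -1.0, -0.82 and -1.29, beside -0.08, 0.12 and 0.03 over all genes tested. Of all genes tested, 4.83%, 6.3% and 8.4% were called higher and 9.61%, 5.39% and 11.9% lower. Irf4, Bach2 and Spib passed the filter only through WT c-kit-. Ciita passed it in the labelled knockout comparisons only through wild-type libraries. Only a fall could be called for these genes there, so nothing is read from the counts and medians. With a filter of 5 TPM the calls became 1 between the c-kit+ groups and 3 against WT c-kit-.

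Irf4, which drives Prdm1 in lymphoid cells and is also an interferon regulatory factor of myeloid cells, was 11.62, 9.14 and 8.76 TPM in WT c-kit- and 1.02, 0.77 and 0.86 TPM in WT c-kit+, with 0.14, 0.01 and 0.13 TPM in the labelled knockout libraries. It fell by 2.52 (SE 0.15, limma Benjamini-Hochberg adjusted p = 4.7e-05) and by 3.3 (SE 0.15, limma Benjamini-Hochberg adjusted p = 1.13e-05) on the log2 scale in the c-kit+ groups against WT c-kit-. Only a fall could be called for Irf4 there, and for Ciita, Bach2 and Spib below, so their p-values are given as a description. Bcl6, the repressor that opposes Blimp-1 in germinal centre B cells, was 21.74 to 30.26, 6.06 to 10.53 and 2.78 to 3.99 TPM, and fell in every comparison (log2 fold changes -1.53, -1.19 and -2.71, highest limma Benjamini-Hochberg adjusted p = 0.00487). Ciita, the master regulator of MHC class II genes, was 2.13 to 4.62, 1.57 to 2.23 and 0.02 to 0.07 TPM. It fell by 1.43 (SE 0.16, limma Benjamini-Hochberg adjusted p = 0.000736) from WT c-kit+ to the labelled knockout. Bach2 and Spib, B cell factors, were at most 1.75 and 2.4 TPM in WT c-kit- and at most 0.26 and 0.69 TPM in the c-kit+ groups. Bach2 was called lower in WT c-kit+ at a log2 fold change of -1.02 (SE 0.15, limma Benjamini-Hochberg adjusted p = 0.00222), and the call was lost after quantile normalization (-0.98) and without replicate 2 of WT c-kit- (-0.95) or replicate 3 of WT c-kit+ (-0.99).

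Myc, which drives proliferation and is repressed by Blimp-1 in plasma cells, was 46.63, 61.95 and 53.07 TPM in WT c-kit- and 96.7, 116.67 and 83.94 TPM in WT c-kit+, with 109.41, 136.15 and 106.69 TPM in the labelled knockout libraries. It was called higher in the labelled knockout against WT c-kit- (log2 fold change 1.11, SE 0.13, limma Benjamini-Hochberg adjusted p = 0.000488), and without replicate 2 of the labelled knockout the value was 1.0 and the call was lost, at an adjusted p of 0.00142 by limma. Every labelled knockout library lay above every WT c-kit- library in Myc. All WT c-kit+ libraries were also above WT c-kit- (log2 fold change 0.86, SE 0.15, limma Benjamini-Hochberg adjusted p = 0.00376), which was not called. Between the c-kit+ groups, which overlapped, the log2 fold change of Myc was 0.25 (SE 0.14, limma Benjamini-Hochberg adjusted p = 0.194). The mean of Prdm1 was 0.767 TPM in WT c-kit- and 0.0733 TPM in the labelled knockout. Of the 5 monocyte and macrophage markers, 4 were lower in all WT c-kit+ than in all WT c-kit- libraries, as Irf4 and Bcl6 were, and C1qa was higher. Between the c-kit+ groups 4 were lower in the labelled knockout libraries, as Bcl6 was, and Adgre1 was higher. The part of these cells in the levels of Irf4 and Bcl6 was not tested.

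**Figure D4:**
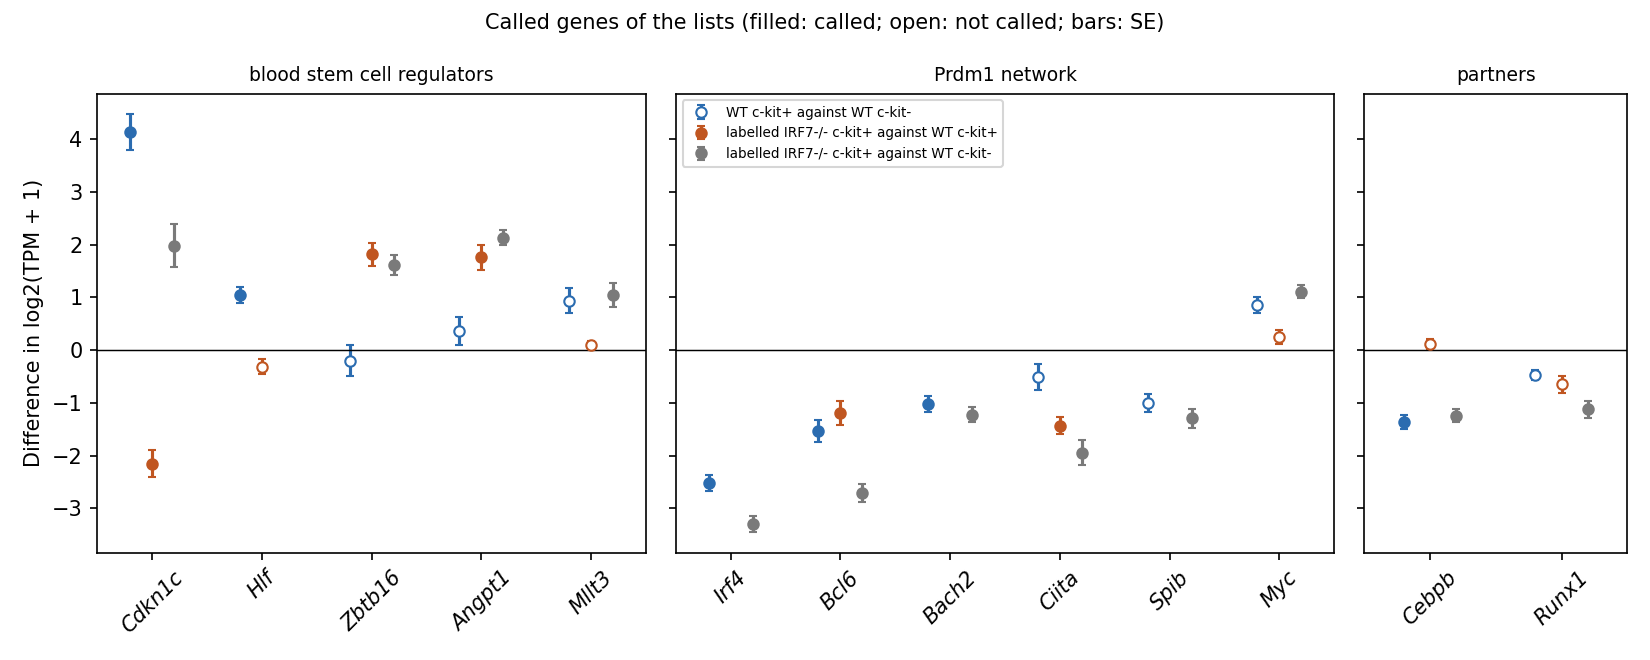
Difference in log2(TPM + 1) with SE (vertical axis) for the 13 listed genes called in at least 1 comparison, in panels for blood stem cell regulators, the Prdm1 network and partners of PR-domain proteins. Filled points were called and open points were not, colors are the 3 comparisons, and a missing point was not tested. Cdkn1c rose to WT c-kit+ and fell to the labelled knockout, Zbtb16 and Angpt1 were called higher in the labelled knockout, and Irf4 and Bcl6 reached -3.3 and -2.71 there against WT c-kit-.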

How the data were processed

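Per the labels, RNA was sequenced from 9 libraries (TruSeq RNA v2) of MLL-AF9 leukemia cells, 3 for each of 3 groups taken from the sample labels. The authors deposited 1 table of 55536 genes in which they had aligned, quantified and scaled the reads of each library to TPM, by gene length and library total. The study's methods speak of microarrays, but the labels describe sequencing and the values sum like TPM, so they were read as RNA-seq. The header names no unit, and TPM were inferred from column sums of 987468 to 992231. The aligner, quantifier, genome build and filters are not given in the sources used here. TPM keep no depth, so no counting intervals are given, precision is shown only by the 3 libraries of a group, and p-values measure only their spread, which may be technical. A few abundant genes that rise in a library lower all others there.

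The 8 genes and the gene lists were chosen with earlier results of these data known. limma (3.58.1, R 4.3.3, lmFit and eBayes with trend) was fitted to log2(TPM + 1) for each pair of groups on its own 6 libraries, over genes that reached 1 TPM in 3 or more of them, with Benjamini-Hochberg adjustment over all genes tested. A call needed an adjusted p under 0.05 and a log2 fold change of 1 or more in either direction. The function was tested on simulated data first. Fold changes on log2(TPM + 1) understate changes of low genes. The text names the 8 genes, the 5 nearest patterns to 3 of them, up to 6 called genes per list and comparison, Kit, Irf7 and overlapping genes, and other genes were named after their values were seen. Some genes of these lists are not reported here and enter no list count or sum. All 55536 identifiers matched GENCODE M21 (GRCm38), and promoter windows came from RefSeq (GRCm38.p6). Alternatives were a pseudocount of 0.1, no filter, a filter of 5 TPM, quantile normalization, a joint fit of all 9 libraries, a replicate block, and each library left out. Python 3.11.15, pandas 2.3.3 and matplotlib 3.10.9 were used.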

Additional observations from a re-analysis of the deposited data

How the results depend on the processing

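The members kept their direction under the alternatives run, except Prdm16 between the wild-type groups and Prdm4, Prdm10 and Prdm15 between the c-kit+ groups, whose differences of 0.01, 0.02, 0.09 and 0.05 reached 0 or changed sign. A pseudocount of 0.1 gave log2 differences of -6.04 and -6.02 for Prdm16 in the labelled knockout against WT c-kit+ and WT c-kit-, and of -1.66, -0.74 and -2.4 for Prdm1 in the 3 comparisons, since a smaller pseudocount stretches low values. Quantile normalization gave, for WT c-kit+ against WT c-kit-, 0.16 for Prdm16, -0.16 for Prdm2, -0.06 for Prdm4 and for Prdm15, and -0.09 for Prdm10. In the labelled knockout it gave -0.36 and 0.0 for Prdm2 and Prdm10 against WT c-kit+, and -0.53 and -0.09 against WT c-kit-. Leaving out each library kept Mecom between 0.65 and 1.09 from WT c-kit- to WT c-kit+, with the higher value without replicate 3 of WT c-kit-.

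A filter of 5 TPM left fewer genes to test, with 1015 calls between the c-kit+ groups (531 higher) in place of 1548 (834 higher), and 752 higher against WT c-kit- in place of 1135. Under it 1 stem cell regulator was called between the wild-type groups, and 1 and 3 genes of the Prdm1 network in the comparisons of the labelled knockout with WT c-kit+ and WT c-kit-. Leaving out each library gave 1 to 3 stem cell regulators called between the wild-type groups, 1 without replicate 2 of WT c-kit+, and 1 to 2 partners called in the labelled knockout against WT c-kit-, 1 without replicate 2 of the labelled knockout. All other list counts and counts of called genes stayed within 1.5 times the reported value.

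The labels number replicates alike in each group but do not say what equal numbers share. Deviations from the group means of same-numbered libraries correlated by -0.059 to 0.26, not above 0.1 in every pair, so the numbers were not read as a pairing. With the replicate number as a block, 1950, 1549 and 2749 genes were called in place of 1916, 1548 and 2738, and the block changed no call of a named gene. TPM give no depth, so a value of 0 has no detection limit.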
